A study of Mus musculus with 14 samples.

Results

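The genes described here make ribosomes: they encode subunits of RNA polymerase I and the nucleolar proteins that process ribosomal RNA (rRNA) and assemble it into ribosomal subunits. The list held 43 genes. Of these, 39 had a probe set that names that gene alone and were measured, out of 10254 genes measured in all. The probe set with the highest mean level stood for a gene that had several. Dkc1, Wdr3, Nat10 and Nob1 had no such probe set in the table used here and have no values.

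Levels were measured in 14 thymic lymphomas, each from a separate mouse and each on 1 array. All mice were p53R270H/R270H, of mixed strain (C57BL/6-129/SvEvTac), and were killed when they had signs of respiratory distress. They differed at Hif1a, the gene of the oxygen-regulated subunit of a hypoxia-inducible transcription factor, with 5 Hif1a+/- tumours, 4 Hif1aKI/+ tumours (1 knock-in allele) and 5 Hif1a+/+ tumours. What the knock-in allele carries and how the deleted allele was made are not stated in the labels, which also name no batch, sex or age. The p53 allele is shared by every group, so nothing here compares it with wild-type p53. The study set out to find expression differences that might bear on tumour onset and incidence.

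RNA polymerase I works in the nucleolus, where it transcribes the long precursor of most of the rRNA. Small nucleolar ribonucleoproteins (snoRNPs) then modify that precursor, and large complexes of assembly factors cut it and fold it with ribosomal proteins into the small and the large subunit. The demand for new ribosomes is high in growing and dividing cells, and many of the genes that meet it are known targets of the transcription factor Myc, which is often active in T cell lymphomas.

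Values are log2 levels. A microarray signal depends on the probes of each gene, so levels are compared between tumours and never between genes. In listing a gene, the values follow the tumour numbers, which are 1 to 5 in Hif1a+/- and Hif1a+/+ and 1, 3, 4 and 5 in Hif1aKI/+. All 39 genes had a mean above 4.41, the level that separates the low mode of the deposited values, where probe sets show no signal above background, from the rest. Single tumours lay below it for Polr1b (3 tumours), Noc3l (2 tumours) and Rcl1 (1 tumour), where the size of a difference is uncertain. In bulk tissue, fewer cells of a type and less RNA per cell cannot be told apart.

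The arrays correlated with each other at 0.941 to 0.974. T cell markers were well measured, as the label thymic lymphoma asks: 12 of 14 had a probe set, 0 of them had a mean below 4.41, and their mean level lay between 11.22 and 11.75 in Hif1a+/-, 11.50 and 11.63 in Hif1aKI/+ and 11.15 and 11.63 in Hif1a+/+ tumours. Hif1a itself was 12.54, 12.24, 12.47, 12.82 and 12.68 in Hif1a+/- tumours, 12.25, 12.14, 11.94 and 11.75 in Hif1aKI/+ tumours and 12.60, 13.04, 12.45, 12.44 and 12.85 in Hif1a+/+ tumours. The Hif1aKI/+ tumours lay below every Hif1a+/+ tumour, as was so for 0.878% of all genes. That difference was -0.66 (SE 0.16, limma adjusted p = 0.984) and did not pass. The Hif1a+/- tumours overlapped with the Hif1a+/+ tumours. The probes of Hif1a were not placed on its exons here, so this signal is no check of the deleted allele.

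One tumour stood apart in these genes. Hif1a+/- tumour 5 held the lowest of the 14 values for 32 of 39 genes (82.1%), while it held the lowest value for 11% of all 10254 genes and for 13.8% of the 7332 genes with a mean above 4.41. It lay below the gene's own mean for 38 of 39, with a median deviation of -0.82, against a median of -0.00 over all genes in that tumour. Set against the mean of the other 13 tumours, the median gene was 0.88 lower there, and 17 of 39 were lower by more than 1 on the log2 scale. This pattern was seen in the data and is given as a description with no test. The main counts, medians and named differences that involve Hif1a+/- are therefore given with and without this tumour.

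**Figure D1:**
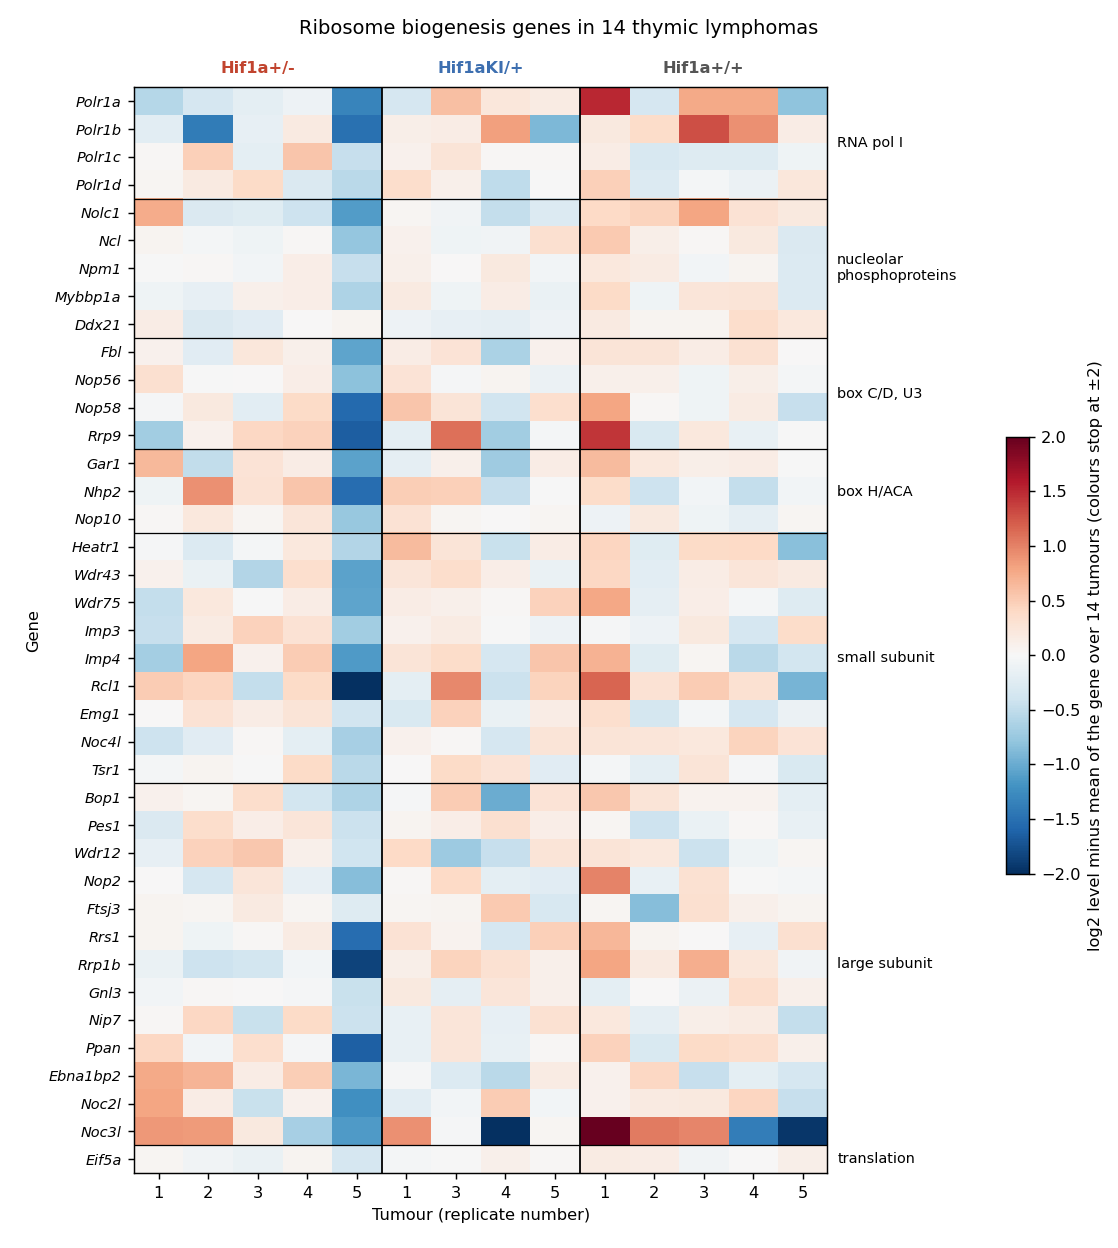
Level of each of the 39 measured ribosome biogenesis genes (rows, grouped by role) in each of the 14 tumours (columns, by genotype and tumour number), as the log2 level minus the mean of that gene over the 14 tumours; colours stop at ±2. The column of Hif1a+/- tumour 5 is blue in 38 of 39 rows, with a median of -0.82, and the column of Hif1a+/+ tumour 1 is mostly red, with a median of 0.37.

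The low values of that tumour were found in every role of the list. All 4 RNA polymerase I subunits, all 4 box C/D and U3 snoRNP genes and all 3 measured box H/ACA snoRNP genes were at their lowest there, with median deviations of -0.92, -1.31 and -1.06. So were 4 of 5 nucleolar phosphoprotein and rRNA transcription genes (median -0.62), 8 of 9 small subunit assembly genes (median -0.69), 8 of 13 large subunit assembly genes (median -0.85) and the translation factor gene Eif5a (-0.34). The 7 genes that were not lowest there were Ddx21, Heatr1, Bop1, Wdr12, Ftsj3, Nip7 and Noc3l. Ddx21, an RNA helicase that links rRNA transcription with processing, was the 1 gene above its own mean in that tumour, by 0.05.

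Rcl1, a factor needed in yeast for an early cut in the precursor of the small subunit rRNA, gave the widest gap. It was 7.57, 7.49, 6.58, 7.44 and 4.14 in Hif1a+/- tumours, 6.86, 8.02, 6.64 and 7.50 in Hif1aKI/+ tumours and 8.22, 7.35, 7.57, 7.36 and 6.13 in Hif1a+/+ tumours. Hif1a+/- tumour 5 lay 3.15 below the mean of the other 13 and below the background boundary, so that the gap has no certain size.

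Nop58, a core protein of the box C/D snoRNPs that guide rRNA methylation, was 11.49, 11.71, 11.29, 11.89 and 9.96 in Hif1a+/- tumours, 12.07, 11.76, 11.12 and 11.85 in Hif1aKI/+ tumours and 12.30, 11.53, 11.43, 11.67 and 11.05 in Hif1a+/+ tumours. Tumour 5 lay 1.67 below the mean of the others, which otherwise overlapped across genotypes. Its partner Nop56 was 13.68, 13.35, 13.37, 13.49 and 12.54 in Hif1a+/- tumours, 13.63, 13.34, 13.41 and 13.25 in Hif1aKI/+ tumours and 13.46, 13.46, 13.28, 13.48 and 13.32 in Hif1a+/+ tumours. Outside tumour 5, all of its values lay between 13.25 and 13.68. Fbl, the methyltransferase fibrillarin of the same particles, was 13.31, 13.01, 13.46, 13.33 and 12.17 in Hif1a+/- tumours, 13.37, 13.51, 12.60 and 13.32 in Hif1aKI/+ tumours and 13.49, 13.49, 13.38, 13.54 and 13.23 in Hif1a+/+ tumours. Here Hif1aKI/+ tumour 4 was also low. Rrp9, a protein of the U3 snoRNP, was the widest of these across tumours, at 6.56, 7.34, 7.67, 7.71 and 5.61 in Hif1a+/- tumours, 7.05, 8.36, 6.56 and 7.22 in Hif1aKI/+ tumours and 8.68, 6.95, 7.46, 7.11 and 7.25 in Hif1a+/+ tumours. Its lowest value again came from Hif1a+/- tumour 5 and its highest from Hif1a+/+ tumour 1.

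The box H/ACA snoRNPs guide the conversion of uridine to pseudouridine. Nhp2, 1 of their core proteins, was 11.43, 12.42, 11.80, 12.06 and 9.99 in Hif1a+/- tumours, 12.01, 11.99, 11.05 and 11.50 in Hif1aKI/+ tumours and 11.88, 11.10, 11.45, 11.04 and 11.45 in Hif1a+/+ tumours. The Hif1a+/- group thus held both the highest and the lowest value of this gene. Nop10 was 13.57, 13.75, 13.59, 13.79 and 12.79 in Hif1a+/- tumours, and no Hif1aKI/+ or Hif1a+/+ tumour was below 13.36.

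Among the large subunit factors, Rrs1, which in yeast helps to bring 5S rRNA into the particle, was 10.25, 10.10, 10.21, 10.36 and 8.66 in Hif1a+/- tumours, 10.47, 10.26, 9.85 and 10.66 in Hif1aKI/+ tumours and 10.85, 10.24, 10.20, 10.02 and 10.51 in Hif1a+/+ tumours. Ppan, the counterpart of the fly gene peter pan, was 9.53, 9.05, 9.45, 9.08 and 7.48 in Hif1a+/- tumours, 8.97, 9.35, 8.96 and 9.14 in Hif1aKI/+ tumours and 9.57, 8.81, 9.50, 9.44 and 9.22 in Hif1a+/+ tumours. In both genes 4 of 5 Hif1a+/- tumours lay within the range of the other genotypes and tumour 5 lay far below it, by 1.64 for Rrs1 and 1.76 for Ppan against the mean of the others. Bop1, Pes1 and Wdr12, whose proteins form 1 complex of the large subunit precursor, did not share this pattern as a set. Pes1 reached 9.76 in Hif1a+/- tumour 5 and 9.78 in Hif1a+/+ tumour 2. Bop1 was lowest in Hif1aKI/+ tumour 4 (10.33) and Wdr12 in Hif1aKI/+ tumour 3 (11.34).

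Npm1 and Ncl, the abundant nucleolar proteins nucleophosmin and nucleolin, differed in how far they ranged. Over the 14 tumours Npm1 had the third narrowest range of the 39 genes (0.67) and Ncl spanned 1.29. Npm1 was 14.16, 14.20, 14.12, 14.30 and 13.71 in Hif1a+/- tumours, 14.27, 14.18, 14.36 and 14.11 in Hif1aKI/+ tumours and 14.38, 14.34, 14.12, 14.23 and 13.89 in Hif1a+/+ tumours. Ncl was 13.30, 13.20, 13.15, 13.26 and 12.47 in Hif1a+/- tumours, 13.32, 13.16, 13.17 and 13.56 in Hif1aKI/+ tumours and 13.76, 13.35, 13.26, 13.43 and 12.95 in Hif1a+/+ tumours. For both, Hif1a+/- tumour 5 was lowest and Hif1a+/+ tumour 5 next lowest.

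**Figure D2:**
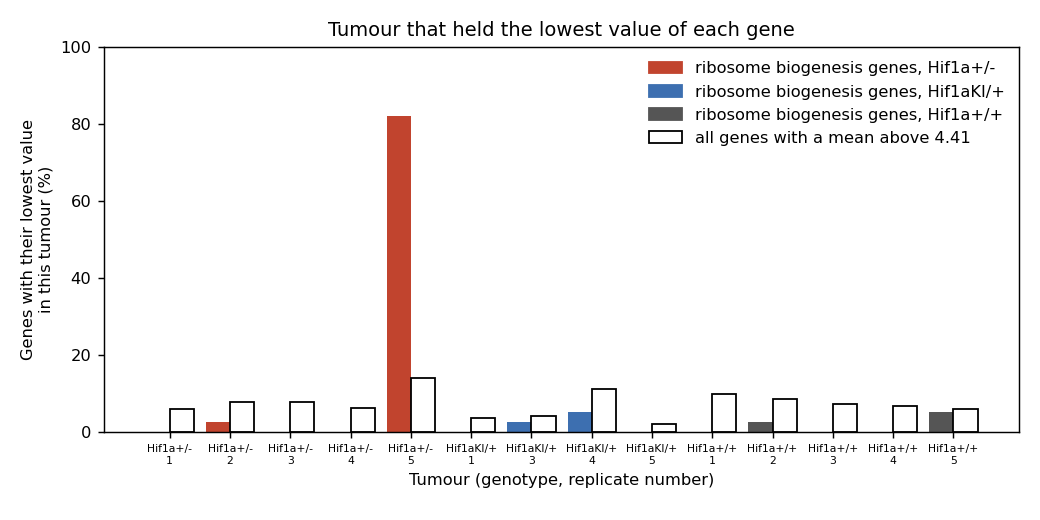
Percent of genes that had their lowest value in each tumour (x axis), for the 39 ribosome biogenesis genes (filled bars, coloured by genotype) and for the 7332 genes with a mean above 4.41 (open bars). Hif1a+/- tumour 5 held 82.1% of the ribosome biogenesis genes' lowest values and 13.8% of those of the 7332 genes; every other tumour held at most 5.13% of the ribosome biogenesis genes' lowest values.

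At the other end, Hif1a+/+ tumour 1 held the highest value for 17 of 39 genes (43.6%), against 7.78% of all genes. Its median deviation was 0.37, and 4 of 39 genes were below their mean there. Polr1a was 9.13 there, Rrp9 8.68, Nop2 12.27 and Noc3l 8.43. These values belong to the group against which both other genotypes are set.

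Other values of Hif1a+/- tumour 5 moved with the ribosome biogenesis genes. Myc was 11.35, 11.30, 12.64, 12.02 and 9.45 in Hif1a+/- tumours, 11.84, 11.28, 12.72 and 12.26 in Hif1aKI/+ tumours and 12.33, 12.39, 11.09, 10.69 and 12.03 in Hif1a+/+ tumours. Mki67, which encodes the proliferation antigen Ki-67, was 13.38, 12.30, 12.88, 12.54 and 12.03 in Hif1a+/- tumours, 12.87, 12.77, 12.71 and 12.73 in Hif1aKI/+ tumours and 13.05, 13.19, 13.22, 13.16 and 12.57 in Hif1a+/+ tumours. Both genes had their lowest value in that tumour. Of 22 measured proliferation genes, 16 (72.7%) were lowest there, and their mean level was 11.20 in that tumour and 11.81 or more in all Hif1aKI/+ and Hif1a+/+ tumours. The mean of 12 macrophage markers was also lowest there, at 7.91, while the mean of 12 T cell markers was highest there, at 11.75, and that of 8 endothelial markers too, at 5.78. Over the 14 tumours, 2 of the macrophage and 4 of the endothelial markers had a mean below 4.41. The limma array weight, which falls as an array departs from the fit over all genes, was lowest for this tumour at 0.572. The part of these values in the low ribosome biogenesis levels was not tested.

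Other sets of ribosome genes were counted in the same tumour, with no test of the difference. Of 57 further ribosome assembly factors measured, 16 (28.1%) were lowest there, with a median deviation of -0.23. Of 22 cytoplasmic ribosomal protein genes, 9 (40.9%) were lowest there, with a median deviation of -0.10. Of 12 further RNA polymerase I subunits and factors 3 (25%) were lowest there, with 6 of 12 below their own mean and a median deviation of 0.01. Of 8 RNA polymerase III subunits 1 (12.5%) was lowest there, with 6 of 8 below their own mean and a median deviation of -0.50.

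Setting Hif1a+/- beside Hif1a+/+ tumours bears on the loss of 1 Hif1a allele. Of the 39 genes, 30 were lower in Hif1a+/-, with a median difference of -0.21 against -0.00 over all genes, of which 53.8% were lower. No gene of the 39 passed (0 called by limma at an adjusted p of 0.05, where 0.0195% of all genes were called). At an unadjusted p under 0.05 there were 6 genes, all lower (15.4%), where 7.94% of all genes reached that level in either direction and 3.64% did so as lower. With the probe set of highest variance for each gene that count was 2 of 39 (5.13%), against 7.28% of all genes. These 2 were Rrp1b and Polr1b. Without Hif1a+/- tumour 5, 22 were lower and 17 higher, and the median difference was -0.04. The sign changed in 8 genes, and 6 (15.4%) reached an unadjusted p under 0.05, against 8.13% of all genes. The 4 lower ones were Noc4l, Rrp1b, Polr1b and Ddx21, and the 2 higher ones were Polr1c at 0.37 and Ebna1bp2 at 0.62, both picked out after their values were seen (limma adjusted p = 0.593 and 0.539).

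**Figure D3:**
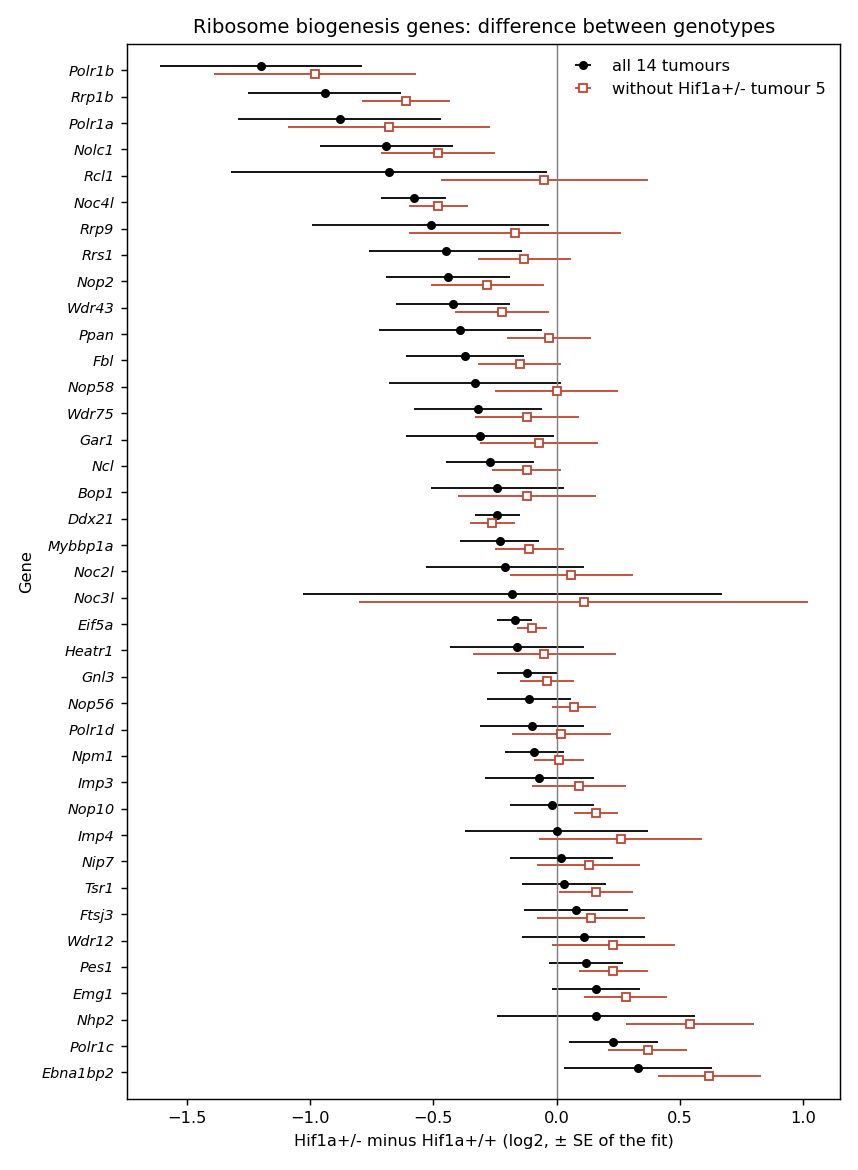
Difference in log2 level, Hif1a+/- minus Hif1a+/+, for each of the 39 ribosome biogenesis genes (rows, ordered by size), with the standard error of the fit as a bar. Black points use all 14 tumours (median -0.21) and open red squares leave out Hif1a+/- tumour 5 (median -0.04). Noc4l, Rrp1b, Polr1b and Ddx21 were lower at an unadjusted limma p under 0.05 in both fits, and none passed after adjustment.

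Noc4l, whose yeast counterpart acts in maturation and export of the small subunit, had the smallest p. It was 11.66, 11.86, 12.11, 11.89 and 11.41 in Hif1a+/- tumours, 12.17, 12.11, 11.74 and 12.33 in Hif1aKI/+ tumours and 12.33, 12.32, 12.29, 12.53 and 12.36 in Hif1a+/+ tumours. The highest Hif1a+/- value was below the lowest Hif1a+/+ value, as was so for 0.741% of all genes. The difference was -0.58 (SE 0.13, 95% interval -0.87 to -0.29), a level 1.49-fold lower, with a limma adjusted p of 0.408. The exact permutation p of this 1 gene was 0.00794 (two-sided), the smallest that 5 against 5 tumours can give. Without Hif1a+/- tumour 5 the difference was -0.48 (limma adjusted p = 0.518). Its other probe sets differed by -0.52 and -0.43. The second, its probe set of highest variance, gave a limma unadjusted p of 0.0869 (adjusted p = 0.692), against 0.00096 for the one used. The mean of its probe sets gave -0.51 (limma unadjusted p = 0.0151, adjusted p = 0.582).

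Rrp1b, a nucleolar protein of rRNA processing, was 10.41, 10.13, 10.18, 10.50 and 8.69 in Hif1a+/- tumours, 10.67, 11.00, 10.85 and 10.65 in Hif1aKI/+ tumours and 11.34, 10.72, 11.27, 10.78 and 10.48 in Hif1a+/+ tumours. It differed by -0.94 (SE 0.31, limma adjusted p = 0.514) with all tumours and by -0.61 (SE 0.18, adjusted p = 0.518) without Hif1a+/- tumour 5. The other probe sets of Rrp1b gave -0.86 and -1.0. Only Hif1a+/+ tumour 5, at 10.48, overlapped with the Hif1a+/- tumours.

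Polr1b and Polr1a encode the large subunits that form the catalytic core of RNA polymerase I. Polr1b was 4.84, 3.66, 4.90, 5.23 and 3.57 in Hif1a+/- tumours, 5.18, 5.20, 5.88 and 4.16 in Hif1aKI/+ tumours and 5.25, 5.42, 6.34, 5.97 and 5.20 in Hif1a+/+ tumours. Its difference was -1.20 (SE 0.41, limma adjusted p = 0.524), with Hif1a+/- tumours 2 and 5 below the background boundary, and -0.98 without tumour 5. Polr1a was 7.05, 7.29, 7.43, 7.52 and 6.31 in Hif1a+/- tumours, 7.29, 8.23, 7.85 and 7.79 in Hif1aKI/+ tumours and 9.13, 7.29, 8.38, 8.39 and 6.83 in Hif1a+/+ tumours. It differed by -0.88 (SE 0.41, limma adjusted p = 0.626), with a Hif1a+/+ spread of 0.93 (SD, n = 5) that took in most Hif1a+/- values, and by -0.68 without tumour 5. Polr1c and Polr1d encode subunits that RNA polymerase I shares with RNA polymerase III. Polr1c averaged 11.36 ± 0.44 in Hif1a+/- (SD, n = 5), 11.38 ± 0.11 in Hif1aKI/+ (SD, n = 4) and 11.13 ± 0.19 in Hif1a+/+ tumours (SD, n = 5). Polr1d averaged 13.54 ± 0.37, 13.57 ± 0.36 and 13.64 ± 0.30 in the same groups, and both genes overlapped between genotypes.

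Ddx21 was 13.26, 12.81, 12.88, 13.11 and 13.16 in Hif1a+/- tumours, 13.01, 12.94, 12.93 and 13.01 in Hif1aKI/+ tumours and 13.29, 13.16, 13.16, 13.46 and 13.31 in Hif1a+/+ tumours. It differed by -0.24 (SE 0.09, limma adjusted p = 0.546) and, since tumour 5 was not low in this gene, by -0.26 without it. Its other probe set, which correlated with this one at only 0.36, gave -0.72, and the mean of both gave -0.48, with limma adjusted p of 0.796 and 0.712. Neither reached an unadjusted p under 0.05. Nolc1, a phosphoprotein that binds both snoRNPs and RNA polymerase I, was 11.55, 10.52, 10.57, 10.40 and 9.69 in Hif1a+/- tumours, 10.85, 10.75, 10.34 and 10.54 in Hif1aKI/+ tumours and 11.21, 11.26, 11.61, 11.10 and 11.01 in Hif1a+/+ tumours. Apart from Hif1a+/- tumour 1, every tumour with an altered Hif1a allele lay below every Hif1a+/+ tumour. Its difference was -0.69 (SE 0.27, limma adjusted p = 0.561), and -0.48 without Hif1a+/- tumour 5. Its other probe sets gave -0.72 and -0.88.

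Eif5a, a translation factor that carries the modified amino acid hypusine and is no assembly factor, differed by -0.17 (SE 0.07, limma adjusted p = 0.618) with all tumours and by -0.10 (SE 0.06, adjusted p = 0.725) without Hif1a+/- tumour 5. It was 13.61, 13.50, 13.44, 13.62 and 13.23 in Hif1a+/- tumours, 13.54, 13.57, 13.67 and 13.59 in Hif1aKI/+ tumours and 13.74, 13.72, 13.50, 13.58 and 13.69 in Hif1a+/+ tumours. Wdr43, of the complex that binds the nascent rRNA, was 12.48, 12.26, 11.80, 12.73 and 11.32 in Hif1a+/- tumours, 12.63, 12.75, 12.52 and 12.26 in Hif1aKI/+ tumours and 12.80, 12.18, 12.54, 12.63 and 12.57 in Hif1a+/+ tumours. Its difference was -0.42 (SE 0.23, limma adjusted p = 0.669), with overlapping groups, and -0.22 (SE 0.19, adjusted p = 0.807) without Hif1a+/- tumour 5.

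**Figure D4:**
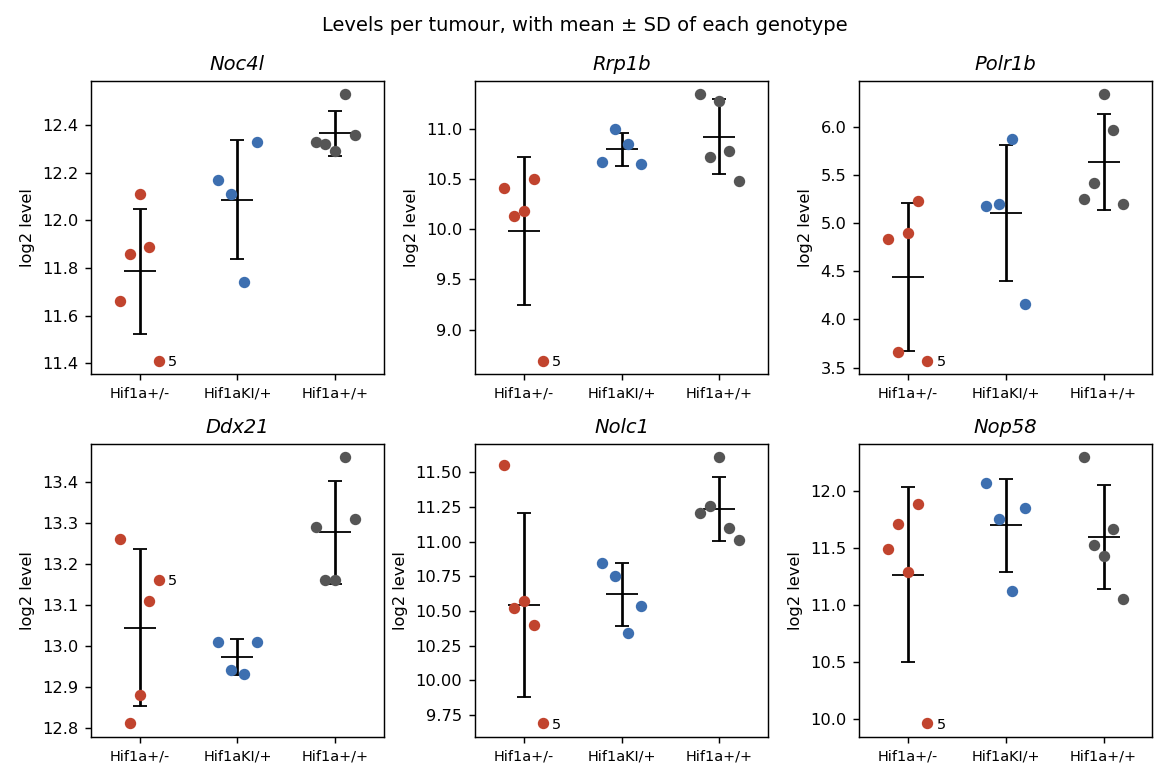
log2 level (y axis, a separate scale per panel) of 6 ribosome biogenesis genes in each tumour (points) of the 3 genotypes (x axis), with the mean and SD of each genotype (lines); the digit 5 marks Hif1a+/- tumour 5. Noc4l separates Hif1a+/- from Hif1a+/+ tumours, Ddx21 does not place tumour 5 low, and Nop58 differs between genotypes mainly through tumour 5.

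By role, the median difference between Hif1a+/- and Hif1a+/+ was -0.49 for the RNA polymerase I subunits (3 of 4 lower), -0.24 for the nucleolar phosphoprotein and rRNA transcription genes (5 of 5 lower) and -0.35 for the box C/D and U3 genes (4 of 4 lower). It was -0.02 for box H/ACA genes (2 of 3 lower), -0.16 for small subunit assembly (7 of 9 lower) and -0.18 for large subunit assembly (8 of 13 lower). These medians, without Hif1a+/- tumour 5, were -0.33 for the RNA polymerase I subunits (2 of 4 lower), -0.12 for the phosphoprotein and transcription genes (4 of 5 lower), -0.07 for the box C/D and U3 genes (3 of 4 lower) and 0.16 for the box H/ACA genes (1 of 3 lower). For the assembly genes they were -0.05 in the small subunit (5 of 9 lower) and 0.06 in the large subunit (6 of 13 lower). None of the genes in any role passed in either fit. The genes that were higher in Hif1a+/- included Ebna1bp2, a large subunit factor, at 12.03, 11.95, 11.41, 11.76 and 10.35 in Hif1a+/- tumours, 11.24, 11.00, 10.72 and 11.43 in Hif1aKI/+ tumours and 11.35, 11.68, 10.80, 11.07 and 10.93 in Hif1a+/+ tumours. Outside tumour 5, every Hif1a+/- value was above 4 of the 5 Hif1a+/+ values, and tumour 5 was below them all.

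The other lists of this pathway gave mixed directions. Of 57 further ribosome assembly factors measured out of 67, 45 were lower in Hif1a+/- than in Hif1a+/+ (median -0.13), 4 of them at an unadjusted p under 0.05 beside 2 higher, and 0 passed. Among them Ddx54 differed by -0.48, Ddx10 by -0.77 and Ddx49 by 0.57, all helicase genes, with limma adjusted p of 0.46, 0.474 and 0.474. Leaving out Hif1a+/- tumour 5, 42 of the 57 were lower (median -0.08), and these 3 genes differed by -0.53, -0.73 and 0.50. Of 12 further RNA polymerase I subunits and factors, 9 were higher (median 0.19), and 10 were higher without that tumour (median 0.22). Rrn3, which brings RNA polymerase I to its promoter, was the 1 gene of these at an unadjusted p under 0.05, at -0.62 (SE 0.20, limma adjusted p = 0.506), and -0.49 without that tumour. Polr2e and Ttf1 of the same list differed by 0.54 and 1.28, and by 0.58 and 1.45 without it, the Hif1a+/+ mean of Ttf1 (3.61) lying below the background boundary. Of 8 RNA polymerase III subunits 6 were lower (median -0.25), with Polr3gl at -1.26 (limma adjusted p = 0.46), Polr3e at -0.80 and Polr3c at -0.30. Without that tumour the same number were lower (median -0.29), and the 3 genes differed by -1.37, -0.62 and -0.31. Polr3c was 0.01 higher with its probe set of highest variance.

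Of 22 cytoplasmic ribosomal protein genes measured out of 36, 16 were higher, with a median of only 0.04. At an unadjusted p under 0.05, 4 were higher, where 7.94% of all genes reached that level in either direction. Rpl19 differed by 0.29 (SE 0.07, limma adjusted p = 0.408), Rps14 by 0.25 and Rpl11 by 0.18. Leaving out Hif1a+/- tumour 5, 19 of 22 were higher (median 0.11), and these 3 genes differed by 0.30, 0.28 and 0.19. Proliferation genes had 20 of 22 lower (median -0.29), with Rrm2 at -0.32, Mcm2 at -0.52 and Kif23 at -0.42 (limma adjusted p of 0.54, 0.587 and 0.625). Without that tumour 17 of 22 were lower (median -0.14), and these differed by -0.27, -0.34 and -0.27. In the Myc network, 7 of 9 genes were higher (median 0.23), among them Mlx at 0.70 (limma adjusted p = 0.408), Mycl at 0.23 with both means below the boundary, and Mxi1 at 0.45. Without that tumour 7 of 9 were higher too (median 0.29), with these genes at 0.59, 0.29 and 0.59. Myc itself was 11.35 ± 1.20 in Hif1a+/- (SD, n = 5), 12.02 ± 0.61 in Hif1aKI/+ (SD, n = 4) and 11.71 ± 0.77 in Hif1a+/+ tumours (SD, n = 5). The Hif1a+/- mean of Myc takes in tumour 5, at 9.45. Apart from it, the Hif1a+/- tumours lay between 11.30 and 12.64, and the Hif1a+/+ tumours lay between 10.69 and 12.39. No gene of these lists passed.

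Markers of some other cells also lay apart between these genotypes. The mean level of 10 fibroblast and matrix markers was 7.71 to 8.86 in Hif1a+/- tumours and 9.10 to 10.28 in Hif1a+/+ tumours, without overlap, and 10 of 10 were lower. That of 12 macrophage markers was 7.91 to 8.80 in Hif1a+/- and 8.82 to 10.06 in Hif1a+/+ tumours, with 10 of 12 lower. Thymic epithelium markers had 7 of 8 higher, with overlapping mean levels of 5.73 to 7.98 in Hif1a+/- and 3.20 to 7.58 in Hif1a+/+ tumours. With Hif1a+/- tumour 5 left out, 10 of 10 fibroblast and matrix markers and 9 of 12 macrophage markers were lower and 7 of 8 thymic epithelium markers higher. The mean level of the macrophage markers was then 8.52 to 8.80 in Hif1a+/- tumours. No gene of these lists passed, and their part in the ribosome biogenesis differences was not tested.

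Setting Hif1aKI/+ beside the same Hif1a+/+ tumours bears on the knock-in allele. Of the 39 genes, 23 were lower and 16 higher in Hif1aKI/+, with a median difference of -0.06, where 52.3% of all genes were lower. None passed (limma, 0 called among the 39 and 0% of all genes), and 1 reached an unadjusted p under 0.05, against 4.35% of all genes. The balance rested on single tumours: without Hif1aKI/+ tumour 4, 17 were lower and the median was 0.02, and without Hif1a+/+ tumour 1, 15 were lower and the median was 0.03.

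Ddx21 was that 1 gene, at -0.31 (SE 0.09, 95% interval -0.51 to -0.10, limma adjusted p = 0.984). Its other probe set gave -0.92 (limma adjusted p = 0.989) and the mean of both gave -0.61. Neither reached an unadjusted p under 0.05. All 4 Hif1aKI/+ tumours, between 12.93 and 13.01, lay below all 5 Hif1a+/+ tumours, and the exact permutation p was 0.00794, the smallest that 4 against 5 tumours can give. Nolc1 did not overlap either, at -0.62 (SE 0.29, limma adjusted p = 0.984), and Pes1 was higher without overlap at 0.28 (SE 0.16, limma adjusted p = 0.984). The exact permutation p was 0.00794 for Nolc1 and 0.0317 for Pes1. For Pes1 the lowest Hif1aKI/+ value, 10.25, was barely above the highest Hif1a+/+ value, 10.24. Groups without overlap were seen for 0.878% of all genes in each direction, and for 2 of the 39 genes as lower and 1 as higher. The differences of the other named genes all overlapped: Noc4l -0.28, Polr1b -0.53, Gar1 -0.37, Polr1c 0.25 and Tsr1 0.17. Without Hif1aKI/+ tumour 4, Noc4l differed by -0.16 and Gar1 by -0.19. Without Hif1aKI/+ tumour 5, Polr1b differed by -0.22 and Tsr1 by 0.29, while Tsr1 was 0.08 higher without Hif1aKI/+ tumour 3.

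Markers of some other cells differed mostly in the same direction within a list in this comparison too, with mean levels that overlapped in every list given here. The mean level of 10 fibroblast and matrix markers was 8.26 to 9.26 in Hif1aKI/+ tumours and 9.10 to 10.28 in Hif1a+/+ tumours, with 10 of 10 lower and a median difference of -0.80. Thymic epithelium markers had 8 of 8 higher (median 2.16, 5 of them at an unadjusted p under 0.05), with a mean level of 6.63 to 8.03 in Hif1aKI/+ and 3.20 to 7.58 in Hif1a+/+ tumours. All 6 adipocyte markers measured were lower (median -1.31), at a mean level of 5.67 to 6.75 in Hif1aKI/+ and 5.55 to 9.54 in Hif1a+/+ tumours. For 2 of the 6 the mean over all tumours was below 4.41. None of these markers passed, and their part in the ribosome biogenesis differences was not tested.

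Hif1a+/- tumours were also set against Hif1aKI/+ tumours. With all tumours, 33 of 39 were lower in Hif1a+/- than in Hif1aKI/+ (median -0.15), as were 53.1% of all genes. None passed (limma, 0 called among the 39 and 0% of all genes), and 1 gene, Rrp1b, reached an unadjusted p under 0.05, against 3.06% of all genes. Without Hif1a+/- tumour 5, 18 were lower and 21 higher, the median was 0.02, and the sign changed in 15 genes. Rrp1b differed by -0.81 (SE 0.33, limma adjusted p = 1) and did not overlap, as was so for 0.439% of all genes as lower, and it differed by -0.49 without tumour 5. The next genes by p were Noc4l at -0.30, Wdr43 at -0.42, Polr1a at -0.67, Wdr75 at -0.42, Polr1b at -0.66, Gnl3 at -0.19 and Eif5a at -0.11, all with overlapping groups and a limma adjusted p of 1. Without tumour 5 these differences were -0.20 for Noc4l, -0.22 for Wdr43, -0.47 for Polr1a, -0.21 for Wdr75, -0.45 for Polr1b, -0.10 for Gnl3 and -0.05 for Eif5a. With the probe set of highest variance, Noc4l differed by -0.07 and Eif5a by -0.03. Rrp1b differed by -0.85 with that probe set (limma unadjusted p = 0.0957) and by -0.72 with the mean of its probe sets (limma unadjusted p = 0.0773). None of the 39 genes reached an unadjusted p under 0.05 with either of these rules. The 22 proliferation genes had 17 lower in Hif1a+/- than in Hif1aKI/+ (median -0.18), and 13 lower without tumour 5 (median -0.05).

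Across the 14 tumours the genes varied together. Over the 741 pairs of the 39 genes the median correlation was 0.47, with a range of -0.55 to 0.90 and 7.02% of pairs below 0. Over all pairs of the 7332 genes with a mean above 4.41 the median was 0.00. Without Hif1a+/- tumour 5 the median over the 741 pairs was 0.16, with 34.4% of pairs below 0. With values centred on the genotype means, the median was 0.51. These correlations describe 14 shared arrays and carry no test. Nop58 had the highest mean correlation with the other 38 genes, at 0.62, and 0.32 without Hif1a+/- tumour 5. Ddx21 had the lowest, at -0.03. Some pairs stayed close without that tumour: Wdr75, of the complex that binds the nascent rRNA, and Imp4, of the U3-bound complex, correlated at 0.88 and at 0.82 without it, and Fbl and Gar1 at 0.87 and 0.77. These pairs were chosen after their values were seen.

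The level of Myc was compared with each gene over the 14 tumours, since Myc is known to act on many of these promoters. The correlation was above 0 for 37 of 39 genes, with a median of 0.43 against -0.02 over all genes. None passed (100000 permutations, 0 of the 39 and 0% of 10253 genes), and 8 reached an unadjusted permutation p under 0.05, against 9.92% of all genes. Once Hif1a+/- tumour 5, which had the lowest Myc level, was left out, the median was -0.08, 14 genes were above 0 and 0 reached an unadjusted p under 0.05. The positive relation thus rested on that tumour.

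The relations to Myc with the smallest permutation p were those of Eif5a, Nop10, Rrs1 and Imp3, ahead of Npm1, whose r was 0.62 and rho 0.43. For Eif5a, Pearson's r was 0.71 (permutation p = 0.0075, adjusted p = 0.384) and Spearman's rho 0.55 (permutation p = 0.0437, adjusted p = 0.926). Without the 2 tumours farthest from the median of Myc, Hif1a+/- tumour 5 and Hif1a+/+ tumour 4, its r was 0.40. Nop10 had an r of 0.72 (permutation p = 0.0112, adjusted p = 0.398) and a rho of 0.33 (permutation p = 0.248, adjusted p = 0.957), Rrs1 an r of 0.71 (permutation p = 0.0135, adjusted p = 0.404) and a rho of 0.34 (permutation p = 0.232, adjusted p = 0.956). Imp3, of the U3-bound complex of the small subunit, had an r of 0.61 (permutation p = 0.0195, adjusted p = 0.419) and a rho of 0.28 (permutation p = 0.324, adjusted p = 0.958). Without the same 2 tumours these were 0.01, 0.10 and 0.10, so that the 3 relations rested on them.

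Mki67 gave a closer relation for a few genes. The correlation was above 0 for 34 of 39 genes, with a median of 0.49 against -0.01 over all genes. None passed (100000 permutations, 0 of the 39 and 0% of 10253 genes), and 12 reached an unadjusted permutation p under 0.05, against 9.62% of all genes. Without Hif1a+/- tumour 5 the median was 0.13, and 7 genes reached that level in either direction, against 12.4% of all genes. Positive among these were Nolc1 (r = 0.82), Gar1 (0.64) and Ddx21 (0.57). Pes1 (-0.73), Polr1c (-0.68), Imp3 (-0.60) and Nhp2 (-0.56) were negative. Each gene was thus set against 2 levels, Myc and Mki67, and p was adjusted over all genes for each.

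Nolc1 followed Mki67 most closely, with an r of 0.89 (permutation p = 5e-05, adjusted p = 0.0854) and a rho of 0.89 (permutation p = 8e-05, adjusted p = 0.161). The correlation stayed high when tumours were left out, but did not pass. It was 0.77 without Hif1a+/- tumours 5 and 1, the 2 farthest from the median of Mki67 (permutation test, adjusted p = 0.188). It was 0.82 without Hif1a+/- tumour 5 alone (permutation test, adjusted p = 0.104). Within genotypes, with values centred on the genotype means, it was 0.87. The other probe sets of Nolc1, which correlated with the one used at 0.73 and 0.78, were not set against Mki67. Gar1, a core protein of the box H/ACA snoRNPs, had an r of 0.78 (permutation p = 0.00103, adjusted p = 0.216), a rho of 0.68 (permutation p = 0.00821, adjusted p = 0.342) and an r of 0.54 without the same 2 tumours. Fbl had an r of 0.71 (permutation p = 0.00439, adjusted p = 0.291), a rho of 0.62 (permutation p = 0.0205, adjusted p = 0.439) and an r of 0.55 without them. Ppan had an r of 0.70 (permutation p = 0.00407, adjusted p = 0.288), a rho of 0.60 (permutation p = 0.0251, adjusted p = 0.465) and an r of 0.36 without them.

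**Figure D5:**
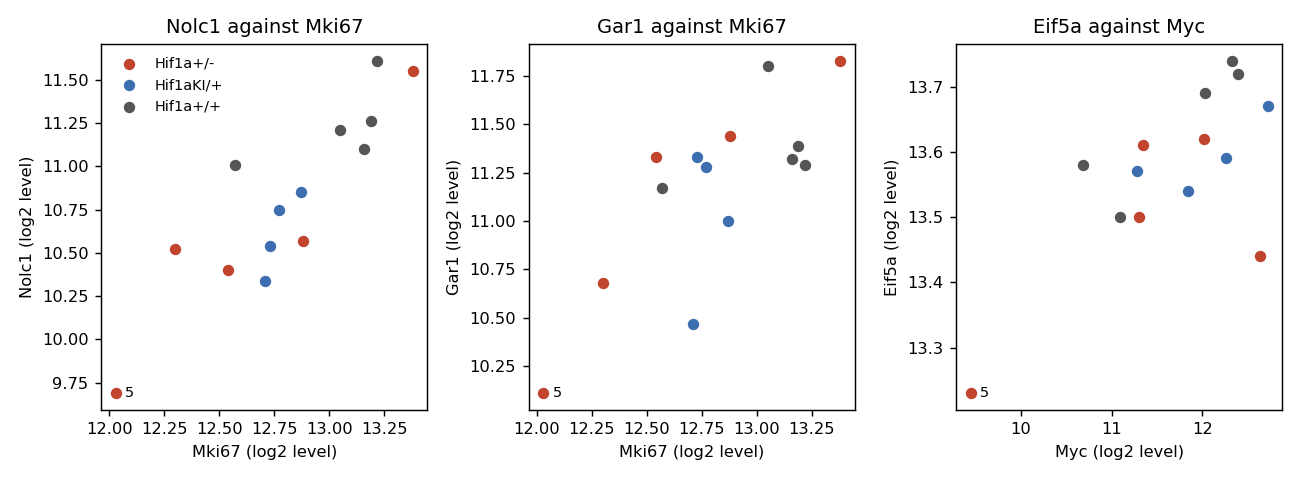
log2 levels of Nolc1 and Gar1 against Mki67, and of Eif5a against Myc, with 1 point per tumour coloured by genotype; the digit 5 marks Hif1a+/- tumour 5. Nolc1 and Mki67 line up across tumours (r = 0.89, and 0.82 without tumour 5), while Eif5a and Myc are tied mainly by the tumour at the lower left (r = 0.71, and 0.37 without it).

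The promoters of these genes were read for the hexamer CACGTG, the E-box that Myc and its partner Max are known to bind, in RefSeq sequence of build GRCm38.p6 running over 250 bases before and 50 bases after each gene's start. The hexamer reads the same on both strands. Of the 39 measured genes 35 had a promoter in the table used, 44 promoters in all, and 9 of these (20.5%) held the hexamer. It was held by 9.55% of the 10609 promoters of measured genes and by 7.15% of all 32851 promoters. Counted by gene, 7 of 35 (20%) had it in at least 1 promoter, against 11.5% of the 8248 measured genes with a promoter. A match describes the letters of this window and not a bound site. Ahead of the start it was found in 3 of the 6 alternative promoters of Eif5a, once in each (first base at -185, -178 and -74 from the start of its own promoter), and in Imp4 (-121) and Nop2 (-60). It was found after the start in Mybbp1a (41), Pes1 (3), Tsr1 (25) and Wdr43 (18).

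The 150 bases before the start are shown for 5 of these genes, with the hexamer in capitals. Noc4l, Polr1b and Nolc1 are shown because they were among the genes of smallest p between Hif1a+/- and Hif1a+/+, and Nop2 and Imp4 because the hexamer lies ahead of their start. Noc4l is at chr5:110653383-110653532 on the minus strand, and on the plus strand Polr1b is at chr2:129100846-129100995, Nolc1 at chr19:46075697-46075846, Nop2 at chr6:125131733-125131882 and Imp4 at chr1:34439679-34439828.
Noc4l: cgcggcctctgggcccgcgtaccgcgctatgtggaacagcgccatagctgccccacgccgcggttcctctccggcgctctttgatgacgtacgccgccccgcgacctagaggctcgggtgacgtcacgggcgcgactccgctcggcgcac
Polr1b: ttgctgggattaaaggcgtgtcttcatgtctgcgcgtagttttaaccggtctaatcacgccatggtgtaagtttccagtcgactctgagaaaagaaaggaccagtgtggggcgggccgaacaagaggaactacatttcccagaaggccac
Nolc1: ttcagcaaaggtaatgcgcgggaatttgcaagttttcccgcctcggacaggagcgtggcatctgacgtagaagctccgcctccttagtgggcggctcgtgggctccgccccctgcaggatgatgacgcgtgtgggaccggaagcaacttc
Nop2: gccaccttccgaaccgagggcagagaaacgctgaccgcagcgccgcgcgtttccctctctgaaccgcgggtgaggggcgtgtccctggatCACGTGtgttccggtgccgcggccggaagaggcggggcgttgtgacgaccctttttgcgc
Imp4: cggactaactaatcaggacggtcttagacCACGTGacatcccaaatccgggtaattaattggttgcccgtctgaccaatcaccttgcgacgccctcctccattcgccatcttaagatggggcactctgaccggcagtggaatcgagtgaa

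The hexamer is absent from the windows of Noc4l, Polr1b and Nolc1, which says nothing of Myc at those genes. Nop2, an rRNA methyltransferase of the large subunit, was 11.28, 10.94, 11.52, 11.11 and 10.42 in Hif1a+/- tumours, 11.30, 11.67, 11.08 and 11.05 in Hif1aKI/+ tumours and 12.27, 11.13, 11.58, 11.26 and 11.23 in Hif1a+/+ tumours. Imp4 was 10.72, 12.18, 11.48, 11.90 and 10.26 in Hif1a+/- tumours, 11.65, 11.76, 11.06 and 11.95 in Hif1aKI/+ tumours and 12.09, 11.15, 11.43, 10.85 and 11.03 in Hif1a+/+ tumours. The genotypes overlapped for both, with the lowest value in Hif1a+/- tumour 5.

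The other probe sets of the same genes were set beside the ones used. Of the 39 genes 23 had more than 1 probe set. Of the 29 other probe sets, 24 had a mean above 4.41, and 21 of these 24 had the same sign of difference between Hif1a+/- and Hif1a+/+ as the one used and 19 were lowest in Hif1a+/- tumour 5. Their median correlation with the probe set used was 0.86.

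Among the remaining genes, Noc3l, of the yeast Noc complexes that move large subunit precursors out of the nucleolus, varied most between tumours. It was 6.94, 6.92, 6.27, 5.40 and 4.94 in Hif1a+/- tumours, 6.98, 6.05, 3.95 and 6.11 in Hif1aKI/+ tumours and 8.43, 7.10, 7.05, 4.68 and 4.13 in Hif1a+/+ tumours, so that the Hif1a+/+ group alone spanned most of its range. Noc2l was 11.33, 10.68, 10.10, 10.63 and 9.31 in Hif1a+/- tumours, 10.33, 10.49, 11.04 and 10.49 in Hif1aKI/+ tumours and 10.62, 10.72, 10.74, 10.97 and 10.08 in Hif1a+/+ tumours. Heatr1, which works early on the small subunit precursor, was lowest in Hif1a+/+ tumour 5 (10.17), next to 10.42 in Hif1a+/- tumour 5. Gnl3, the GTPase nucleostemin, was 13.48, 13.55, 13.54, 13.51 and 13.09 in Hif1a+/- tumours, and no Hif1aKI/+ or Hif1a+/+ tumour was below 13.33. Ftsj3, an rRNA methyltransferase, was between 9.06 and 9.49 in Hif1a+/- tumours, 8.99 and 9.83 in Hif1aKI/+ tumours and 8.46 and 9.63 in Hif1a+/+ tumours. Nip7, of the large subunit precursor, was between 11.01 and 11.87 in Hif1a+/- tumours, 11.29 and 11.76 in Hif1aKI/+ tumours and 10.99 and 11.67 in Hif1a+/+ tumours. Emg1, an rRNA methyltransferase of the small subunit, was between 11.62 and 12.30 in Hif1a+/- tumours, 11.71 and 12.47 in Hif1aKI/+ tumours and 11.66 and 12.35 in Hif1a+/+ tumours. Mybbp1a, a nucleolar protein known to restrain rRNA transcription, was between 12.53 and 13.28 in Hif1a+/- tumours, 13.01 and 13.33 in Hif1aKI/+ tumours and 12.87 and 13.52 in Hif1a+/+ tumours. For all 4 of these the ranges of the 3 genotypes overlapped.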

How the data were processed

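Total RNA (100 ng per tumour) was amplified and hybridised to 1 Affymetrix array per tumour, per the labels' protocols. The deposited values are log2 probe set levels made by the authors, with GCRMA and Partek (no versions named), per the submitters' processing notes. GCRMA corrects for background by probe sequence, normalizes between arrays and summarises probe sets, and so can compress differences near background. No genome build is named there.

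Of 18264 probe sets, 16602 named 1 gene, 603 several and 1059 none by the platform annotation. The one of highest mean per gene left 10254 genes. Of these, 28.5% had a mean below 4.41, the lowest point of the density between the modes of all values. The 14 arrays were fitted with limma 3.58.1 in R 4.3.3, with 3 genotype means and no filter. Two-sided p were adjusted over all genes after Benjamini and Hochberg, with a threshold of 0.05. For single genes, two-sided exact permutation tests over 252 or 126 assignments of the arrays stand beside it. Correlations with Myc and Mki67 used 100000 permutations. The procedure was tested on simulated data. The replicates are separate tumours by their labels. The number of arrays limits the precision, and no array intensities were used.

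The 43 genes, the other gene lists and the tests were chosen with earlier results of these data known. Named by p are the 8 genes of smallest unadjusted p in each comparison and the 4 closest to Myc and to Mki67. So are 3 genes of each other pathway, proliferation and ribosomal protein list, by p in Hif1a+/- against Hif1a+/+. Some are given as a difference without their p. The cell marker and immediate early lists are given as counts and mean levels. Other genes are given with levels. The same replicate number in different genotypes did not mark shared deviations, so no block was used: over 13 such pairs the mean correlation was -0.00615 (-0.109 to 0.141). Alternatives covered the moderation, the scaling, a filter on level, the probe set rule, array weights, a block, fits of 2 groups and leaving out each tumour.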

Additional observations from a re-analysis of the deposited data

Results flagged for a closer look

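Within each genotype, the lowest and highest tumours were compared with their nearest neighbours for each of the 39 genes, in 117 groups, and 10 (8.55%) held a value far from the rest by Dixon's test. Chance gives about 1 in 20. The share was 12.4% among all 10254 genes and 6.49% among the 7332 genes with a mean above 4.41. The 39 genes vary together, so these are not independent cases. In 8 of 39 genes (20.5%) the value was that of Hif1a+/- tumour 5, at the low end, as in 1.91% of the 7332 genes: Ncl was 12.47 there (nearest 13.15), Nop56 12.54 (nearest 13.35), Nop10 12.79 (nearest 13.57) and Gnl3 13.09 (nearest 13.48). In the same tumour Rcl1 was 4.14 (nearest 6.58), Rrs1 8.66 (nearest 10.10), Rrp1b 8.69 (nearest 10.13) and Ppan 7.48 (nearest 9.05). The other two were Nop10 at 13.84 in Hif1aKI/+ tumour 1, above the rest of its group (nearest 13.58), and Ftsj3 at 8.46 in Hif1a+/+ tumour 2, below the rest of its group (nearest 9.35).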

How the results depend on the processing

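None of the 39 genes passed in any of the 3 comparisons, or in the correlations with Myc and Mki67, under any alternative run. No named difference of these genes changed sign, nor did those of the 18 named genes of the other pathway, proliferation and ribosomal protein lists between Hif1a+/- and Hif1a+/+, except Polr3c (0.01 with the probe set of highest variance, against -0.30). The count that moved was that of all genes. Between Hif1a+/- and Hif1a+/+ it was 2, against 1 with trended and robust moderation and 0 with arrays centred on their medians, quantile normalization, the filter on level, the probe set of highest variance or only the 2 groups compared. With the replicate number as a block it was 0 as well. In that fit 8 of the 39 genes (20.5%), all lower, had an unadjusted p under 0.05, against 8.21% of all genes. Without the block 6 had (15.4%, against 7.94% of all genes), and with the probe set of highest variance 2 had (5.13%, against 7.28% of all genes). Leaving out 1 tumour gave 0 to 1 genes in that comparison, 0 to 2 between Hif1aKI/+ and Hif1a+/+ (1 without Hif1aKI/+ tumour 3, 2 without Hif1aKI/+ tumour 5) and 0 to 1 between Hif1a+/- and Hif1aKI/+. The cause was not tested. The median difference of the 39 genes between Hif1a+/- and Hif1a+/+ was -0.26 with centring, -0.22 with quantile normalization and -0.16 with array weights. Between Hif1aKI/+ and Hif1a+/+ array weights gave 19 lower and 20 higher. Polr1b, Rcl1 and Noc3l reach background in some tumours, which limits their differences.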

Other observations

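Lists of markers of further cell types gave these values between Hif1a+/- and Hif1a+/+ tumours, with 0 genes passed in limma. Of 8 endothelial markers 5 were lower (2 at an unadjusted p under 0.05), and their mean level was 4.01 to 5.78 in Hif1a+/- and 4.55 to 5.30 in Hif1a+/+ tumours. A mean below 4.41 was found for 4 of the 8, among them Eng, 1 of the 2 just counted (2.83 in Hif1a+/- and 3.79 in Hif1a+/+ tumours). Leaving out Hif1a+/- tumour 5, 7 of 8 were lower and the Hif1a+/- range was 4.01 to 4.59. All 6 adipocyte markers measured were lower, with and without that tumour. Their mean level was 5.31 to 6.66 in Hif1a+/- and 5.55 to 9.54 in Hif1a+/+ tumours. Of 5 B cell markers 3 were lower (2 without that tumour), with a mean level of 4.05 to 6.94 in Hif1a+/- and 3.95 to 5.59 in Hif1a+/+ tumours. All 3 erythroid markers measured had a mean below 4.41. So had 2 of the 6 adipocyte markers, 2 of the 5 B cell markers and 4 of the 8 immediate early genes. Of 8 immediate early genes, which respond to handling of tissue, 6 were lower (median -0.07), 1 of them at an unadjusted p under 0.05. The mean level of the 8 was 5.78 to 6.54 in Hif1a+/- and 5.95 to 6.75 in Hif1a+/+ tumours. Without Hif1a+/- tumour 5, 6 were lower too (median -0.05), and the Hif1a+/- range was 5.78 to 6.45.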
